A study of Mus musculus with 7 samples.

Results

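The miR-30 family of the mouse is encoded by 6 hairpins, mmu-mir-30a, mmu-mir-30b, mmu-mir-30c-1, mmu-mir-30c-2, mmu-mir-30d and mmu-mir-30e, and its small RNAs were followed in HL-1 cells, an immortalised line derived from mouse atrial cardiomyocytes. The members were taken by name. Each deposited tag (a distinct sequenced small RNA with its count) was placed on its best matching hairpin among 1174 mouse hairpins, without gaps and with at most 2 mismatches. The 6 hairpins were among 683 that received tags, and they took 5353101 of 41041023 placed tags, or 13.0%, as 3201 of 76222 distinct sequences.

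The study asked which microRNAs and microRNA variants these cells hold, using cultures of increasing age that begin to contract as they become dense. Total RNA was depleted of molecules above 70 nt, and the remainder was sequenced on the SOLiD platform. There were 7 libraries of untreated cells, differing only in the day of culture and in the time course they came from. The labels number the replicates 1 and 2 without saying what a number marks, and the numbers were read as 2 time courses. Time course 1 gave a library at days 1, 3 and 4 (replicate 1 of each day). Time course 2 gave a library at days 1, 2, 3 and 4 (replicate 2). The paper describes 1 time course and an independent repeat of it, the repeat without a day 2 sample. All libraries came from a single cell line, so the repeats carry the spread between cultures and not between animals.

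The libraries held between 4931840 and 6877869 placed tags, which were 99.5 to 99.8% of the tags with a sequence. The microRNAs that mark striated muscle (the strands of miR-1a, miR-133a, miR-208a and miR-499) summed to between 86066 and 105980 RPM in every library, where RPM is tags scaled to 1000000 placed tags. Those of endothelium summed to 483 to 922, of fibroblasts to 355 to 892, of blood to 45.7 to 72.8, of neurons to 18.6 to 35.9 and of hepatocytes to 1.30 to 5.63. Within the muscle sum the strands were far from equal. miR-1a-3p and miR-133a-3p had means of 64637 and 23672 RPM, whereas miR-208a-5p had 2216 and miR-499-5p 6.63. Day 3 of time course 1 stood apart in 1 respect, since 9.02% of its placed tags carried a mismatch against 5.04 to 7.73% elsewhere.

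A microRNA is cut from a hairpin precursor by Drosha, which sets the ends at the base of the stem, and by Dicer, which removes the loop. One strand of the resulting duplex is usually retained in Argonaute as the guide, and the other, the passenger strand or miR*, is mostly discarded. Messages are recognised mainly through the seed, the bases that follow the first base of the guide, so a guide that begins a base later presents another seed. Members of the miR-30 family are abundant in heart muscle and other differentiated tissues, and have been linked there to restraint of connective tissue growth factor and of matrix production.

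The guide strands lie on the 5p arm of all 6 hairpins, and they are shown first because they hold 99.1% of the family's tags and differ from each other only past the seed. The sequences of miR-30a, miR-30c and miR-30e are those of RefSeq for GRCm38.p6, as RNA, and capitals mark the seed, bases 2 to 8.
miR-30a-5p: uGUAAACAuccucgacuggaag
miR-30c-5p: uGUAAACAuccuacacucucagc
miR-30e-5p: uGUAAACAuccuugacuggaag

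The most frequent deposited tag of each guide strand, written as the DNA letters of the files and again with the seed in capitals, shows what the HL-1 cells held. For miR-30b and miR-30d these tags also served as the reference for the start and end, because they were the sequences at hand.
miR-30a-5p tag: tGTAAACAtcctcgactggaagct
miR-30b-5p tag: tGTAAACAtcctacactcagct
miR-30c-5p tag: tGTAAACAtcctacactctcagct
miR-30d-5p tag: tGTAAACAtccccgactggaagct
miR-30e-5p tag: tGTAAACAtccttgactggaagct

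These single sequences made up 36.4% of all miR-30a-5p tags, 62.5% of miR-30b-5p, 47.4% of miR-30c-5p, 40.2% of miR-30d-5p and 31.1% of miR-30e-5p. All 5 guides share the seed GUAAACA. Of the other strands in the reference table only miR-384-5p carries it too, and it had 12 tags in the 7 libraries together.

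Past the seed the guides form a group of miR-30a, miR-30d and miR-30e and a group of miR-30b and miR-30c. Counting from 1 at the 5′ end, the first 20 bases of miR-30d-5p and miR-30a-5p differ by C12T, and those of miR-30a-5p and miR-30e-5p by C13T. At position 12, 2175189 tags carried the base of miR-30d and 456674 that of miR-30a, while 20 and 6 carried either of the remaining bases. At position 13 the base of miR-30a stood in 456674 tags and that of miR-30e in 430954, and the remaining bases in 2. Single-base members were therefore separated with few intermediate tags, although the authors' colour-space mapping kept a base change only where adjacent colours supported it. Tags that matched more than 1 hairpin equally well and were divided made up at most 0.647% of a guide strand, that of miR-30c-5p.

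The passenger strands, on the 3p arm, fall into 3 seed groups, and they are shown to give these seeds. Their abundance, described further on, did not follow the groups. miR-30d-3p had 1642 tags, while miR-30a-3p and miR-30e-3p, with the same seed, had 17343 and 24789. RefSeq holds 4 of the 6, and the most frequent deposited tag is given for miR-30b-3p and miR-30d-3p. Capitals mark bases 2 to 8.
miR-30a-3p: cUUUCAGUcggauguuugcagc
miR-30e-3p: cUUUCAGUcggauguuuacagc
miR-30d-3p tag: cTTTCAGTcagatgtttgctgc
miR-30c-1-3p: cUGGGAGAggguuguuuacucc
miR-30c-2-3p: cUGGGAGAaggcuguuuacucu
miR-30b-3p tag: cTGGGATGtggatgtttacgtc

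The strands miR-30a-3p, miR-30d-3p and miR-30e-3p share the seed UUUCAGU, miR-30c-1-3p and miR-30c-2-3p share UGGGAGA, and miR-30b-3p has UGGGAUG. The second of these was also found in miR-6958-5p, which had 46 tags. No other strand in the table carried either of the remaining seeds.

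The hairpins sit in pairs at 3 loci of the GRCm38 genome. On the plus strand of chromosome 1, mir-30a spans bases 23272269 to 23272339, with no annotated host gene on its strand, and mir-30c-2 spans 23291701 to 23291784, 19361 nt away, in an exon of the long non-coding RNA Gm27028. On the minus strand of chromosome 4, mir-30c-1 (120769534 to 120769622) and mir-30e (120772606 to 120772697) lie 2983 nt apart in an intron of Nfyc, which encodes a subunit of the CCAAT-binding factor NF-Y. On the minus strand of chromosome 15, mir-30b (68337415 to 68337510) has no annotated host on its strand, and mir-30d (68341208 to 68341289) lies 3697 nt away in an exon of the long non-coding RNA Gm20732. The guide of mir-30c-1 and mir-30c-2 is the same molecule, so its tags cannot be assigned to either locus and are given as 1 strand.

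The family made up between 10.3 and 15.96% of the placed tags of a library, with a mean of 13.0 ± 2.00% (SD, n = 7). For time course 1 its share read 10.3, 11.1 and 11.9% in the libraries of days 1, 3 and 4, and for time course 2 it read 13.8, 13.4, 14.4 and 15.96% at days 1 to 4. Every library of time course 2 was above every library of time course 1, and in both time courses day 4 was the highest. Tag counts include the bias of ligation and amplification for each sequence, so levels compare members only as sequenced. Fewer cells carrying a microRNA and fewer copies per cell cannot be told apart in such libraries.

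miR-30d-5p was the most abundant member, with 42.6% of the family's tags. Its level was 42784, 42792 and 40447 RPM at days 1, 3 and 4 of time course 1. In time course 2 it was 72826, 57060.3, 61313 and 67802 RPM at days 1, 2, 3 and 4. The time courses did not overlap, and the mean over all libraries was 55004 ± 13139 RPM (SD, n = 7).

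miR-30b-5p, the neighbour of miR-30d on chromosome 15, held 23.2% of the family's tags. It had 25632, 27351 and 33783 RPM at days 1, 3 and 4 of time course 1, and 23366, 33116, 33523 and 36087 at days 1 to 4 of time course 2. The lowest library of each time course was that of day 1 and the highest that of day 4, and the time courses overlapped. The mean was 30408 ± 4872 RPM (SD, n = 7).

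miR-30c-5p held 14.8% of the family's tags. Its levels were 14411, 16089.6 and 21518 RPM in time course 1 and 16119.6, 18054, 23428 and 25582 in time course 2, in order of the day. Within each time course every later library was above the one before it, and the mean was 19315 ± 4229 (SD, n = 7).

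miR-30a-5p and miR-30e-5p were the least abundant guides, at 9.34 and 9.12% of the family's tags. miR-30a-5p had 9775, 12092 and 10935 RPM in time course 1 and 12528, 11553, 11339 and 16383 in time course 2, with a mean of 12087 ± 2088 (SD, n = 7). miR-30e-5p had 8216, 12089 and 11868 in time course 1 and 12115, 13989, 13195 and 12563 in time course 2, with a mean of 12005 ± 1828. Day 4 of time course 2 was far above the rest for miR-30a-5p, and day 1 of time course 1 far below the rest for miR-30e-5p.

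**Figure D1:**
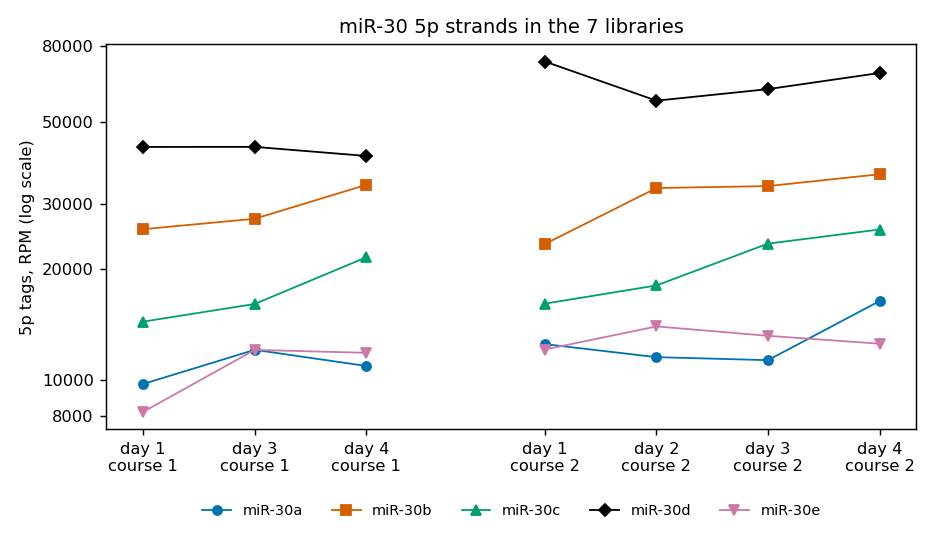
Level of the 5 guide strands in each library, in RPM on a log axis, by day and time course, with lines joining the libraries of a time course. miR-30d-5p is on top in every library, followed by miR-30b-5p and miR-30c-5p, and miR-30a-5p and miR-30e-5p cross each other at the bottom.

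Ranked by level among the 1233 hairpin arms with tags, miR-30d-5p stood 4th over all libraries (between 2nd and 5th in single libraries), miR-30b-5p 8th (6th to 9th), miR-30c-5p 12th (9th to 20th), miR-30a-5p 21st (15th to 28th) and miR-30e-5p 22nd (15th to 32nd). All 5 guides thus stayed within the first 32 arms of every library.

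The order of the guides within the family was the same in all 7 libraries except for the last pair. The 10 pairs were compared by an exact sign-flip permutation test on the log2 ratio in each library (two-sided), which treats the 7 libraries as separate draws, whereas they stem from 2 cultures. In 9 of 10 pairs the same member was higher in 7 of 7 libraries, with an adjusted exact permutation p of 0.0174, where the smallest unadjusted p that 7 libraries allow is 0.0156. miR-30d-5p exceeded miR-30b-5p by a mean log2 ratio of 0.84 ± 0.42 (SD, n = 7), miR-30b-5p exceeded miR-30c-5p by 0.67 ± 0.16, and miR-30c-5p exceeded miR-30a-5p by 0.66 ± 0.26. miR-30a-5p and miR-30e-5p differed by 0.01 ± 0.24, with a range from -0.28 to 0.38 and miR-30a-5p higher in 4 of 7 libraries (exact permutation p = 0.891). The pair miR-30b-5p and miR-30c-5p, from different chromosomes, had the least variable ratio of all 10 pairs, with an SD of 0.158 on the log2 scale. The neighbours on chromosome 15 had the largest SD, 0.415, but this rank rests on 1 library. The log2 ratio of miR-30d-5p to miR-30b-5p was 1.64 at day 1 of time course 2 and between 0.26 and 0.91 in the other libraries.

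Changes over the days of culture were tested for 756 hairpin arms with edgeR's quasi-likelihood test, scaled by TMM. Between day 4 and day 1 the test called 0 of 756 arms (0%) at an adjusted p under 0.05, and so none of the 11 family strands, while 80 arms had an unadjusted p under 0.05. DESeq2 called 16 arms (2.12%), and none of them was a family strand. With the time course as a block, which the pairing of the libraries allows, edgeR called 29 arms (3.84%), 15 higher and 14 lower, again without a family strand.

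All 5 guides had a log2 fold change above 0 between day 1 and day 4, with a median of 0.44 beside a median of 0.01 over the 756 arms. miR-30c-5p gave the largest value of the guides, 0.77 (SE 0.29), with an adjusted p of 0.372 by edgeR's quasi-likelihood test and 0.0596 with the block. miR-30b-5p gave 0.67 (SE 0.25; adjusted p = 0.372 by edgeR, 0.0845 with the block). miR-30a-5p gave 0.44 (SE 0.31), miR-30e-5p 0.41 (SE 0.30) and miR-30d-5p 0.04 (SE 0.39). With a library left out, miR-30a-5p ran from 0.12 to 0.71 and miR-30e-5p from 0.12 to 0.79, while miR-30c-5p stayed between 0.65 and 0.92 and miR-30b-5p between 0.59 and 0.71. Scaling to library totals in place of TMM moved the median of all arms to -0.14 and the value of miR-30d-5p to -0.09, which changed its sign.

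Within a time course, on the scale of RPM, the log2 ratio of day 4 to day 1 for miR-30c-5p came to 0.58 (time course 1) and 0.67 (time course 2). In the same order it was 0.40 and 0.63 for miR-30b-5p, 0.16 and 0.39 for miR-30a-5p, 0.53 and 0.05 for miR-30e-5p, and -0.08 and -0.10 for miR-30d-5p. The first 4 of these guides had the same sign above 0 in both time courses, and miR-30d-5p was slightly below 0 in both.

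The 6 passenger strands had a median of -0.40 for the same contrast, and 2 of 6 were above 0. miR-30a-3p gave -0.79 (SE 0.52), miR-30e-3p -0.53 (SE 0.56), miR-30d-3p -0.51 (SE 0.53) and miR-30b-3p -0.29 (SE 0.44). miR-30c-1-3p gave 0.68 (SE 0.45) and miR-30c-2-3p 0.17 (SE 0.49). None of these values passed the test.

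Between day 3 and day 1, edgeR called 0 of 756 arms (0%), with 38 arms at an unadjusted p under 0.05, DESeq2 called 9 (1.19%) and edgeR with the block 11 (1.46%), and in each case none was a family strand. miR-30c-5p had a log2 fold change of 0.53, miR-30b-5p of 0.48, miR-30e-5p of 0.47, miR-30a-5p of 0.23 and miR-30d-5p of -0.01. The estimates for miR-30b-5p and miR-30c-5p were again the highest of the guides, and their errors (SE 0.25 and 0.29) again left them short of the threshold.

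The time courses were compared with the day in the model. Each is a single culture series, so its libraries are not independent repeats of it. The p-values of this comparison, and of the ratios below, therefore rest on the spread between libraries within a series. They do not measure the spread between repeats of the culture. edgeR called 60 of 756 arms (7.94%) between time course 2 and time course 1, 41 higher and 19 lower, and DESeq2 called 52 (6.88%). Of the 11 family strands 1 was called, miR-30d-5p, which was higher in time course 2 by 0.71 on the log2 scale (SE 0.17; adjusted p = 0.0146 by edgeR's quasi-likelihood test). That 1 of 11 stands beside 7.94% of all arms. The call did not hold under every setting: DESeq2 gave 0.65 with an adjusted p of 0.0608, the model without the day gave 0.61 with 0.0626, and leaving out the day 1 library of time course 1 or of time course 2 gave 0.61 with 0.275 and 0.62 with 0.250.

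The other guides differed less between the time courses, by 0.35 (SE 0.18) for miR-30c-5p, 0.32 (SE 0.20) for miR-30a-5p, 0.29 (SE 0.20) for miR-30e-5p and 0.12 (SE 0.18) for miR-30b-5p, and none passed the test. The ratio of miR-30d-5p to its neighbour miR-30b-5p was 1.67, 1.56 and 1.197 in time course 1 and 3.12, 1.72, 1.83 and 1.88 in time course 2. The ratios of the time courses did not overlap, and the exact permutation test of 3 libraries against 4 gave p = 0.0571, the smallest p this design allows, and 0.457 after adjustment over the 8 ratios tested.

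Among the passenger strands, miR-30e-3p gave 0.81 for time course 2 over time course 1 (SE 0.32; adjusted p = 0.131 by edgeR), miR-30a-3p 0.74 (SE 0.31; 0.149), miR-30b-3p 0.62 (SE 0.26; 0.146) and miR-30c-2-3p -0.73 (SE 0.28; 0.122), so none passed the test. The value of miR-30e-3p passed the threshold when arms with low counts were not filtered out (0.90, adjusted p = 0.0312 by edgeR). Without day 1 of time course 1 the comparison called 0 arms, and without day 1 of time course 2 it called 2.

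**Figure D2:**
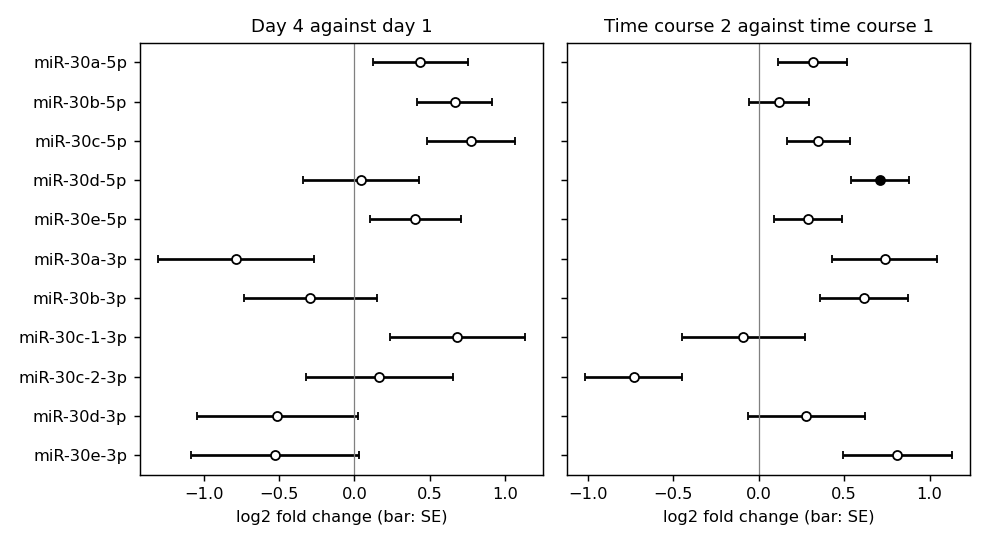
Log2 fold change of each family strand with its SE, for day 4 against day 1 (left) and time course 2 against time course 1 (right), from edgeR over 756 arms, with filled points for an adjusted p under 0.05. The guides lie at or above 0 on the left with no filled point, and miR-30d-5p, at 0.71, is the filled point on the right.

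The passenger strands were rare but not equally so. miR-30e-3p was the most frequent, with 24789 tags in all and a mean of 578 ± 277 RPM (SD, n = 7). It had 927, 244 and 358 RPM at days 1, 3 and 4 of time course 1, and 735, 288, 820.3 and 674 at days 1, 2, 3 and 4 of time course 2. Its libraries fell into a high set of 4 (both day 1 libraries and days 3 and 4 of time course 2) and a low set of 3, without order by day.

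miR-30a-3p followed with 17343 tags and 403 ± 209 RPM. Its values were 694, 216 and 207 in time course 1 and 544, 164, 561 and 435 in time course 2, high and low in the same libraries as miR-30e-3p. The 2 strands differ by G18A in their first 20 bases, at which 14462 tags carried the base of miR-30a-3p, 22029 that of miR-30e-3p and 230 and 186 either of the remaining bases. Divided tags were 1.82% of miR-30a-3p and 0.992% of miR-30e-3p.

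The other passenger strands were rarer. miR-30b-3p had 1650 tags and between 23.7 and 52.6 RPM, and miR-30d-3p had 1642 tags and between 15.1 and 60.3. miR-30c-2-3p had 549 tags, or 123, 89 and 88 in the libraries of time course 1 and 71, 51, 46 and 81 in those of time course 2. miR-30c-1-3p had 214, or 25, 24 and 37 in time course 1 and 32, 39, 20 and 37 in time course 2. miR-30c-2-3p had more tags than miR-30c-1-3p in 7 of 7 libraries, by a mean log2 ratio of 1.31 ± 0.60 (SD, n = 7; exact permutation p = 0.0156, the smallest possible). These 3p strands tell the loci of miR-30c apart, which the identical guides do not.

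As a share of the hairpin's tags, the 3p strand made up 10.1, 1.98 and 2.93% of mir-30e in the libraries of days 1, 3 and 4 of time course 1. In time course 2 the shares of mir-30e were 5.72, 2.02, 5.85 and 5.09% at days 1 to 4. For mir-30a they were 6.63, 1.75 and 1.86% in time course 1 and 4.16, 1.40, 4.72 and 2.58% in time course 2. The share of mir-30e thus varied over 5.13-fold and that of mir-30a over 4.73-fold between libraries.

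The remaining hairpins gave almost nothing but the guide. The mean 3p share was 0.134 ± 0.0495% for mir-30b (0.0702 to 0.225%), 0.102 ± 0.0354% for mir-30c over both loci (0.0487 to 0.151%) and 0.0732 ± 0.0358% for mir-30d (0.0373 to 0.141%). The hairpins mir-30a and mir-30d, whose guides differ by a single base in the first 20, therefore had mean shares of 3.30 ± 1.93% and 0.0732% (SD, n = 7). By the exact sign-flip permutation test on log2 odds, 8 of 10 pairs differed in the same direction in 7 of 7 libraries (adjusted p = 0.0195). The exceptions were mir-30b with mir-30c (0.40 ± 0.76, exact permutation p = 0.203) and mir-30c with mir-30d (0.53 ± 0.72, adjusted exact permutation p = 0.139). mir-30e exceeded mir-30a by 0.55 ± 0.27 on the log2 odds scale (SD, n = 7).

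**Figure D3:**
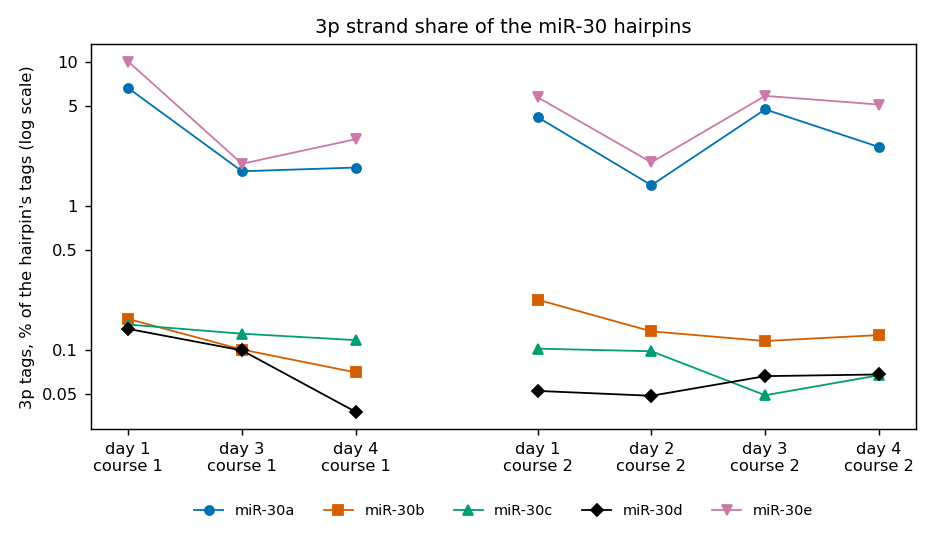
Share of each hairpin's tags that came from the 3p arm, in percent on a log axis, by day and time course (mir-30c is the sum of both loci). mir-30e and mir-30a run together between 1.40 and 10.1%, high and low in the same libraries, and the other hairpins stay below 0.23%.

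The parallel course of the passenger strands of mir-30a and mir-30e, which lie on different chromosomes, was set beside other hairpins. On the log2 odds scale, the deviation of mir-30e from its own mean ran from 1.38 at day 1 of time course 1 to -1.10 at day 3 of time course 1, and that of mir-30a from 1.27 in the former library to -1.05 at day 2. The SD of the log2 odds over libraries was 0.926 for mir-30e and 0.870 for mir-30a. Of all 219 hairpins compared, 41 had a larger SD than mir-30e and 48 a larger SD than mir-30a, and the median was 0.569. Of the 101 with at least 1000 tags on each arm the counts were 9 and 11, and the median was 0.480. Of 295 other arms with at least 1000 tags, miR-30a-3p had the pattern nearest to that of miR-30e-3p, at a root mean square distance of 0.21 on the log2 scale over 7 libraries, followed by miR-500-5p at 0.44 and miR-222-3p at 0.50. This last comparison was chosen after the values had been seen, and it is given as a description.

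The 3p share was also compared between day 4 and day 1 for 219 hairpins with limma on log2 odds. It called 0 of 219 (0%), with 22 at an unadjusted p under 0.05, and with the block it called 4 (1.83%), none of them in the family. The change in log2 odds was below 0 for each of mir-30a (-1.31, SE 0.63), mir-30e (-1.04, SE 0.69), mir-30b (-1.02, SE 0.53), mir-30d (-0.76, SE 0.64) and mir-30c (-0.49, SE 0.64), and none passed the test. With a library left out, mir-30d ran from -1.48 to -0.0490, mir-30c from -0.89 to -0.0813, mir-30e from -1.49 to -0.59, mir-30b from -1.45 to -0.59 and mir-30a from -1.66 to -0.95, so the sizes rest on single libraries.

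Guide tags that did not begin at the annotated base were most frequent for miR-30e-5p. Within 3 nt of the start, 8.31, 8.68 and 8.54% of its tags in time course 1 and 8.41, 8.02, 8.80 and 8.61% in time course 2 began at another base, a mean of 8.48 ± 0.261% (SD, n = 7). For miR-30a-5p the shares were 5.21, 4.92 and 5.09% in time course 1 and 4.91, 4.54, 4.94 and 4.31% in time course 2, a mean of 4.85 ± 0.313%. Every library of miR-30e-5p was above every library of miR-30a-5p, and both varied little between libraries, unlike their passenger strands.

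The other guides began elsewhere in close to 1% of tags. The means were 1.18 ± 0.0936% for miR-30c-5p, 1.13 ± 0.0899% for miR-30b-5p and 1.02 ± 0.0895% for miR-30d-5p, beside 4.54 to 5.003% over all strands of a library. In the exact sign-flip permutation test 9 of 10 pairs of guides differed in 7 of 7 libraries (adjusted p = 0.0174), including miR-30e-5p over miR-30d-5p by 3.18 on the log2 odds scale. The exception was miR-30b-5p with miR-30c-5p, which differed by -0.07 ± 0.07 (exact permutation p = 0.0625).

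Nearly all of these tags began 1 nt late, 8.17 ± 0.296% of miR-30e-5p and 4.63 ± 0.274% of miR-30a-5p (SD, n = 7), whereas those that began 1 nt early were 0.0335 and 0.0397%. The shift replaces the seed of the family by TAAACAT, as the most frequent late tag of each strand shows, with its own bases 2 to 8 in capitals.
miR-30e-5p, 1 nt late: gTAAACATccttgactggaagctgt
miR-30a-5p, 1 nt late: gTAAACATcctcgactggaagct
miR-30b-5p, 1 nt late: gTAAACATcctacactcagct
miR-30d-5p, 1 nt late: gTAAACATccccgactggaagct

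The late tag of miR-30e-5p printed here had 12444 counts, 2.55% of the strand, and it runs 2 bases further at its 3′ end than the most frequent tag of the strand. The late tags of miR-30a-5p (7841 counts), miR-30b-5p (7664) and miR-30d-5p (8947) end where the most frequent tags of those strands end.

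The start and the end of a guide tag were therefore set against each other. Tags of miR-30e-5p that began 1 nt late ended, on average, 1.03 ± 0.0503 nt further downstream than those with the annotated start (SD, n = 7), with a range of 0.965 to 1.11 nt. For miR-30a-5p the shift of the mean end was 0.711 ± 0.0710 nt (0.598 to 0.824 nt). It was 0.225 ± 0.0407 nt for miR-30d-5p, 0.0947 ± 0.0546 nt for miR-30c-5p and 0.0230 ± 0.0367 nt for miR-30b-5p. The late tags of miR-30e-5p thus had about the same length as those with the annotated start, and the late tags of miR-30b-5p were about 1 nt shorter.

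The same was seen in the share of tags that ended past nt 24 of the guide. For miR-30e-5p it was 58.7 ± 2.87% of the late tags and 26.3 ± 2.99% of the tags with the annotated start, and for miR-30a-5p 44.9 ± 4.05% and 22.9 ± 2.53%. For miR-30d-5p it was 25.0 ± 4.24% and 19.8 ± 2.82%. These comparisons of start and end were made after the starts had been seen and carry no test.

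**Figure D4:**
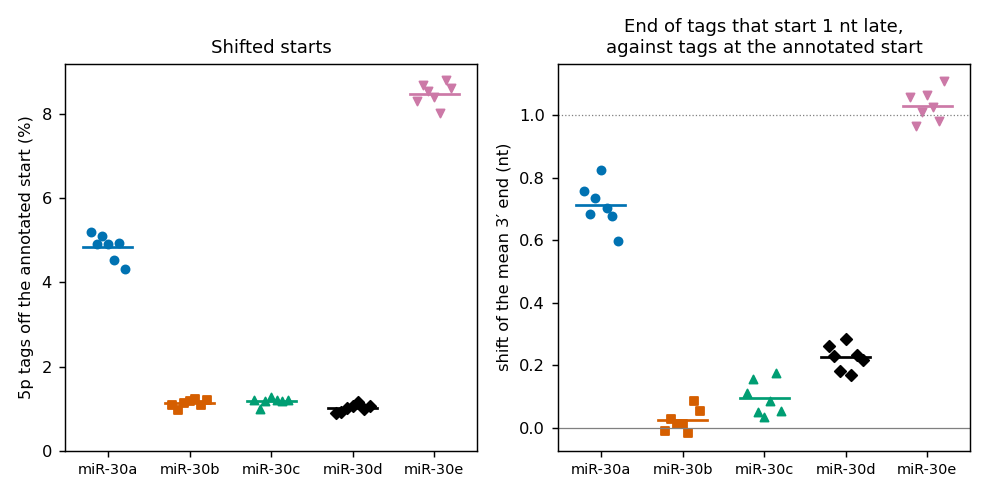
Left, percent of the tags of each guide that began off the annotated base; right, shift in nt of the mean 3′ end of tags that began 1 nt late against tags with the annotated start. Points are the 7 libraries and bars their mean; miR-30e and miR-30a are apart from the rest on both axes, at means of 8.48 and 4.85% and of 1.03 and 0.711 nt.

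In length the guides split in another way. The tags of miR-30a-5p, miR-30c-5p, miR-30d-5p and miR-30e-5p were most often 24 nt long, at 38.6 ± 3.63%, 51.7 ± 1.68%, 41.01 ± 2.34% and 33.7 ± 3.48% of the strand (SD, n = 7). miR-30b-5p was most often 22 nt long (69.1 ± 2.27%), followed by 23 nt (22.2 ± 2.33%). The mean lengths were 23.7 ± 0.0797 nt for miR-30a-5p, 23.7 ± 0.0867 for miR-30c-5p, 23.7 ± 0.115 for miR-30d-5p, 23.8 ± 0.0847 for miR-30e-5p and 22.3 ± 0.0453 for miR-30b-5p, beside 22.3 to 22.6 nt over all strands of a library.

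The RefSeq form was a minority of the tags where RefSeq has one. Its length, 22 nt, was that of 11.1 ± 0.601% of miR-30a-5p tags and 10.99 ± 0.944% of miR-30e-5p tags, and its 23 nt that of 21.3 ± 1.79% of miR-30c-5p tags. The tag ended past the RefSeq end in 85.4 ± 1.39% of miR-30a-5p, 85.2 ± 1.58% of miR-30e-5p and 68.7 ± 2.21% of miR-30c-5p, which the printed sequences show as the additional bases at the 3′ end of the tags.

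Tags over 24 nt were a large part of these guides. They made up 27.1 ± 2.80% of miR-30e-5p (22.7 to 30.4%), 22.8 ± 2.52% of miR-30a-5p (19.6 to 26.6%), 19.7 ± 2.82% of miR-30d-5p (15.4 to 23.1%) and 16.4 ± 1.33% of miR-30c-5p (14.7 to 18.2%), but 1.85 ± 0.749% of miR-30b-5p (0.562 to 2.85%). Over all strands the share was 7.84 ± 1.23%, so miR-30b-5p lay below it and the other 4 above it in every library. All 10 pairs of guides differed in the same direction in 7 of 7 libraries (adjusted exact permutation p = 0.0156). The most frequent long tag of miR-30e-5p, given to show the single added base, had 76145 counts or 15.6% of the strand.
miR-30e-5p, 25 nt: tGTAAACAtccttgactggaagctg

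**Figure D5:**
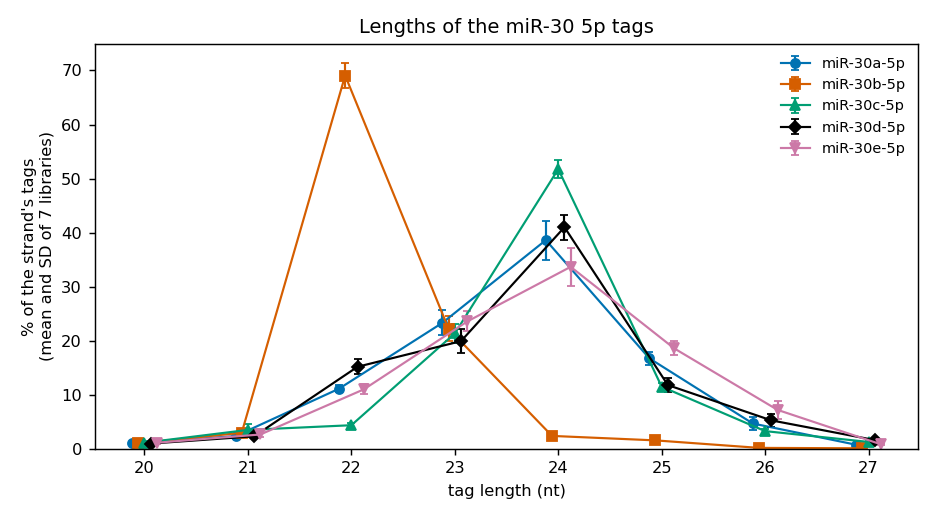
Percent of each guide's tags at each length from 20 to 27 nt, as mean and SD of 7 libraries. miR-30b-5p peaks at 22 nt with 69.1%, and the other guides peak at 24 nt with between 33.7 and 51.7%.

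The passenger strands were close to the usual 22 nt, with mean lengths between 21.7 and 22.1 nt. Tags over 24 nt made up 0.814 ± 0.258% of miR-30e-3p and 0.894 ± 0.384% of miR-30a-3p, far below their guides. Off-start tags were 2.94 ± 0.744% of miR-30e-3p and 6.62 ± 2.54% of miR-30a-3p, which is the reverse of the order of their guides. These 2 comparisons of strands carry no test.

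The forms of the strands were compared between days in the same way. Between day 4 and day 1, limma called 0 of 301 strands (0%) for shifted starts, with 27 at an unadjusted p under 0.05, 0 of 260 (0%) for tags over 24 nt, with 14, and 0 of 305 (0%) for ends past the reference, with 18. With the block the counts were again 0 in each case, with 31, 26 and 38 at an unadjusted p under 0.05. Of the guides, the largest estimates were those of miR-30d-5p, -0.57 log2 odds (SE 0.44) for long tags and -0.57 (SE 0.28) for extended ends. These are not separate results, since the reference end of miR-30d-5p is that of its own 24-nt tag. Its long tags numbered 455082 and its extended tags 457678. The other guides have shorter references, so extended ends are not alike across guides.

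A small number of tags came from the loop, and tags that ran from it into the first bases of the 3p strand were counted with them. The hairpin mir-30e had 522 of them, 143, 78 and 102 in the libraries of time course 1 and 53, 73, 36 and 37 in those of time course 2. Of the 522, 498 began at the base that follows the 24-nt guide tag, and the most frequent of them, with 281 counts, fills the 18 bases between the guide tag (hairpin positions 17 to 40) and the first base of miR-30e-3p (position 59). The 3 adjoining pieces are shown in the order of the hairpin, the outer ones with their seeds in capitals.
miR-30e-5p tag: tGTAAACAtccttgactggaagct
mir-30e loop tag: gtaaggtgttgagaggag
miR-30e-3p tag: cTTTCAGTcggatgtttacagc

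Every library of time course 1 had more mir-30e loop tags than any of time course 2, but the nearest of them, with 78 and 73, were close. Day 3 of time course 2, with the fewest loop tags, had a 3p share of 5.85%. Day 4 of time course 1, with 102, had 2.93%, so the order of the libraries differed between loop tags and 3p share. The 3p share itself includes loop tags. Of 24789 tags on the 3p arm of mir-30e, 24266 lay within 3 nt of the start of miR-30e-3p. The hairpin mir-30d had 32 loop tags, of which 26 began right after its 24-nt guide tag, with gtaagccacagccaagct (19 counts) as the most frequent. mir-30c-2 had 19, mir-30a 10, and mir-30b and mir-30c-1 had 9 each. Only in mir-30e did the most frequent loop tag end before the first base of the 3p strand. In mir-30b it had 1 count and ended at position 65, with the 3p strand starting at 59. In mir-30c-1 it had 3 counts and ended at position 63, with the start at 56. The shortest loop tag had 18 nt, which is also the length that the authors' mapping needed to anchor a tag, so shorter loop fragments were not measured. In every hairpin but mir-30e, fewer than 18 bases lie between the end of a 24-nt guide tag and the 3p strand. In mir-30a, for example, that tag ended at position 29 and the 3p strand began at 47. A loop cut right after the 24-nt guide tag could thus be recorded whole only for mir-30e, and the loop counts do not compare the members. Of 139673 tags that no hairpin's own strand took, 0 fell on the opposite strand of a family hairpin and 7295 on that of any hairpin. The deposited lists hold tags that the authors had already mapped to hairpins, so the 0 does not show that antisense RNA of the family is absent. The paper itself reports an antisense miR-30e in HL-1 cells, found by sequencing and verified by PCR.

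Mismatches inside the guides gathered at 1 base in 2 members. At position 17 of miR-30b-5p, T17G stood in 2.54%, T17A in 2.35% and T17C in 1.03% of the tags, and at position 19 of miR-30c-5p the corresponding changes were T19G, T19A and T19C. Both bases are the T in front of the CAGCT that ends both tags printed above. Another base stood there in 8.22, 13.7 and 1.59% of miR-30b-5p tags in time course 1 and in 6.20, 2.27, 2.71 and 7.38% in time course 2.

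For miR-30c-5p the shares were 5.77, 13.8 and 1.61% in time course 1 and 4.62, 1.89, 2.69 and 4.52% in time course 2. The members were thus high and low in the same libraries, with the highest value of both at day 3 of time course 1, the library with the highest mismatch rate over all hairpins (9.02%). Its part in the result was not tested. Over the whole strand, 93.1 to 96.8% of the tags of a guide were free of mismatches.

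Of the other microRNAs, those whose level ran most like that of the 5 guides summed, among 287 arms with at least 1000 tags, were miR-29a-5p, miR-140-3p, miR-532-5p, miR-183-5p and miR-130b-3p, at root mean square distances of 0.07, 0.11, 0.13, 0.14 and 0.14 on the log2 scale after centring over the 7 libraries. The measure ignores the level itself, and these arms had mean levels between 57.8 and 4699.5 RPM.

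Beside the family, 2 lists of heart microRNAs were followed between day 1 and day 4. Of 7 muscle microRNAs edgeR called 0 higher and 0 lower, with 5 above 0 and a median log2 fold change of 0.26, and these took 9.92% of the placed tags. The highest estimate was that of miR-208a-5p, whose gene lies within a cardiac myosin heavy chain gene, at 1.44 (SE 0.38; adjusted p = 0.327 by edgeR). Of 8 microRNAs linked to the extracellular matrix it called 0 and 0, with 5 above 0 and a median of 0.24, and these took 8.34% of the tags. miR-133a and miR-133b are on both lists. The miR-29 strands, known to act on collagen messages, gave 0.51 (miR-29a-3p, SE 0.33), 0.32 (miR-29b-3p, SE 0.29) and 0.18 (miR-29c-3p, SE 0.37), and miR-133a-3p and miR-133b-3p gave 0.50 and 0.31. The strands miR-18a-5p, miR-19a-3p and miR-19b-3p, gave -0.59 (SE 0.28), -0.47 (SE 0.31) and -0.14 (SE 0.27). The 5 guides of the miR-30 family had a median of 0.44 and took more of the placed tags than either list.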

How the data were processed

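Small RNA of HL-1 cells was measured in 7 libraries, 2 each at days 1, 3 and 4 and 1 at day 2. Per the labels and the study's methods, the authors size-selected small RNA on a gel, built the libraries using the SOLiD small RNA kit, and mapped tags in colour space, first against miRBase version 16 hairpins and then against mouse genome build mm9. The deposited lists pair each distinct hairpin-mapped tag of a library with a count, and these deposited counts were whole and not normalized. A tag without molecular identifier is a read and not a molecule, so counts carry amplification error as well as counting error. Lines without a sequence (101, holding 293 tags) were left out.

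Tags of at least 16 nt were placed on 1174 hairpins of GENCODE (GRCm38) by best ungapped hit with at most 2 mismatches and at most 4 bases past a hairpin end; equal best hits were divided equally. A tag was given to an arm by its centre, so loop tags count in the arm totals and 3p shares. Starts and ends were read against RefSeq mature strands (1657 arms) or, where that table had none, the most frequent start and end. A start counted within 3 nt, and tags over 24 nt were called long. Coordinates are of GRCm38, not of the authors' build.

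Arms were tested with edgeR 4.0.16 (quasi-likelihood, TMM, filterByExpr, day as a factor over all 7 libraries, with the day 2 library assumed to vary like the others), and shares with limma 3.58.1 on log2 odds with 0.5 added, for features that reached 50 tags per library and 10 of each outcome. p-values were adjusted by Benjamini-Hochberg over all features tested, with a threshold of 0.05. The spread between libraries, as the biological coefficient of variation, was 0.376, with 3 residual degrees of freedom. Members were compared within libraries by exact sign-flip permutation, two-sided and adjusted over 10 pairs. Alternatives were DESeq2 1.42.0, library totals, no low-count filter, tags without mismatch, divided tags left out, no day term, a minimum of 200 tags for shares, a larger pseudocount, the time course as a block and each library left out. All tests were checked on simulated data. Every member strand was described; other microRNAs were named for a shared seed, a list or the nearest pattern. The members and lists were chosen with earlier results of these data known. The replicate number was read as the time course, which the labels do not state. Same-numbered libraries deviated together from their day means (r of 0.395, 0.402 and 0.367 for days 1 and 3, 1 and 4, and 3 and 4, over 756 arms). The main fits between days nevertheless carried no time-course term, and the pairing entered only in the alternative with the block. The heart biopsy, genome-mapped tags and target predictions were not analysed here.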

Additional observations from a re-analysis of the deposited data

Results flagged for a closer look

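Of 51 measures examined over the 7 libraries, 5 had a library far from the others, where chance flags about 1 in 20. They were the level of miR-30a-5p, highest at day 4 of time course 2 with 16383 RPM (tags scaled to the placed tags), and of miR-30e-5p, lowest at day 1 of time course 1 with 8216. The others were the share of miR-30c-5p tags off the annotated start, lowest at day 3 of time course 1 with 0.983%, the share of miR-30c-1-3p tags over 24 nt, highest at day 1 of time course 2 with 13.3%, and the share of miR-30d-3p tags that ended past the reference, highest in the same library with 39.0%. The miR-30c-1-3p value rests on a strand with 214 tags in all.

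Some members moved in opposite directions in time course 1 and time course 2, with 1 library on each side, and the difference was not tested. As log2 ratios of RPM, day 3 over day 1 gave 0.31 and -0.14 for miR-30a-5p, 0.000273 and -0.25 for miR-30d-5p, -1.69 and 0.0447 for miR-30a-3p, 0.28 and -0.57 for miR-30c-1-3p, -0.50 and 0.0930 for miR-30d-3p, and -1.93 and 0.16 for miR-30e-3p. Day 4 over day 1 gave -0.0202 and 0.0445 for miR-30c-2-3p and -1.997 and 0.28 for miR-30d-3p. In time course 2, miR-30a-3p and miR-30e-3p were at 164 and 288 RPM at day 2, below the days on either side.

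Loop tags were given to an arm by their centre and so entered the arm totals and 3p shares. They were above the 3 counts that a count of 0 allows for every hairpin. There were 522 for mir-30e, 32 for mir-30d, 19 for mir-30c-2, 10 for mir-30a, and 9 each for mir-30b and mir-30c-1. Only mir-30e has room for an 18-nt tag between the 24-nt guide tag and the 3p strand, so these counts do not compare the hairpins.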

How the results depend on the processing

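The orders of the members and the ratio of the miR-30c passenger strands kept their direction and their side of the threshold under all alternatives run for the pairs that passed. The family's share of placed tags ran from 12.5 to 13.4% with each library left out. With few libraries a day, a missed threshold does not show that levels stayed the same, and strands under 1000 tags (miR-30c-1-3p, miR-30c-2-3p) are limited by counting.

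Day 4 against day 1 called 16 arms with DESeq2 and 29 with the replicate block, and day 3 against day 1 called 9 and 11. The time courses differed in 29 arms with library totals, 33 without the day term, and 0 to 67 with a library left out (0 and 2 without the day 1 library of time course 1 or 2, 33 and 34 without either day 3 library). The 3p share between days gave 4 calls with the block and 0 to 2 with a library left out, extended ends 0 to 2, and shifted starts 2 with at least 200 tags per library. The block changed no other call. miR-30d-5p between time courses lost its call with DESeq2, without the day term and without either day 1 library, miR-30e-3p gained one without the filter, and the starts of miR-30b-5p and miR-30c-5p differed with divided tags left out (adjusted exact permutation p = 0.0469). The cause was not tested.

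Signs turned for values that were not called. For miR-30d-5p, day 4 against day 1 gave -0.0949 with library totals and -0.00872 with exact tags, and day 3 against day 1 gave 0.00471 with DESeq2, 0.0158 without the filter, 0.0248 with exact tags, 0.00841 with divided tags left out and 0.0428 with the block. For miR-30c-1-3p, day 3 against day 1 gave -0.15 with library totals, -0.54 with exact tags and -0.00262 with the block. Without the day term the time courses differed by 0.0179 in miR-30c-1-3p and by -0.021 in miR-30d-3p, and with exact tags miR-30a-5p over miR-30e-5p gave -0.0032.

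With a library left out, the following log2 values also turned. Day 4 against day 1 ran from -0.37 to 0.55 for miR-30d-5p, -0.85 to 0.11 for miR-30b-3p, -0.17 to 0.48 for miR-30c-2-3p and -1.54 to 0.0667 for miR-30d-3p. Day 3 against day 1 ran from -0.37 to 0.49 for miR-30d-5p, -0.26 to 0.32 for miR-30c-1-3p, -0.76 to 0.35 for miR-30c-2-3p, -0.32 to 0.25 for miR-30d-3p and -1.59 to 0.11 for miR-30e-3p. The time courses ran from -0.45 to 0.12 for miR-30c-1-3p and -0.38 to 0.73 for miR-30d-3p, and miR-30a-5p over miR-30e-5p from -0.0523 to 0.0576. In log2 odds at day 4 over day 1, shifted starts ran from -0.84 to 0.72 for miR-30a-3p, -0.24 to 0.0111 for miR-30a-5p, -0.0245 to 0.0916 for miR-30b-5p, -0.62 to 1.16 for miR-30d-3p, -0.0366 to 0.21 for miR-30d-5p and -0.46 to 0.15 for miR-30e-3p. Long tags ran from -0.83 to 0.0707 for miR-30b-3p, -0.11 to 0.65 for miR-30b-5p, -0.14 to 0.11 for miR-30c-5p and -0.82 to 0.54 for miR-30e-3p. Extended ends ran from -0.16 to 0.35 for miR-30a-3p, -0.21 to 0.0701 for miR-30a-5p and -0.13 to 0.21 for miR-30e-3p.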
